A study of Mus musculus with 18 samples.

Results

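The choroid plexus is the tissue in the brain ventricles that makes cerebrospinal fluid, and the 10 genes described here are markers of its epithelium: Ttr, Clic6, Kl, Folr1, Aqp1, Otx2, Kcnj13, Slc4a5, Enpp2 and Cldn2. They were found by their gene symbol in the tables of counts and of transcript abundances, which hold 18922 genes. All 10 were in both tables, and all 10 passed the filter on low counts with 15329 genes in all. The mice were male, of C57Bl6 background and 8 to 10 weeks old. All groups, contralateral tissue included, came from mice with a photothrombotic stroke, for which Rose Bengal was injected at 50 mg/kg and a circle of cortex 3 mm wide was lit by laser (125 mW, 525 nm). Tissue was taken after 7 days. The 6 groups were the infarct core, the peri-infarct zone and the contralateral side of Trem2 knockout mice and the same regions of wild-type mice, with 3 libraries of polyadenylated RNA each. TTC, a dye that living tissue turns red, guided the dissection. The labels name no knockout allele, do not say whether a library is 1 animal or a pool, and give no sequencing date or batch. Trem2 is a lipid receptor of microglia and macrophages.

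Choroid plexus epithelium lies inside the ventricles and is not part of the cortex in which this lesion was set. Its cells pump ions and water into the cerebrospinal fluid, take up folate and other solutes from blood, seal the gaps between them with tight junctions, and secrete carrier proteins such as transthyretin. Otx2, a homeodomain transcription factor, is needed for the choroid plexus to form and to be maintained. Several of the genes are also made by other brain cells. Enpp2 is a product of oligodendrocytes as well, Kl is found at low levels in neurons, Aqp1 is found in red blood cells and in some endothelium, and Otx2 is found in neurons of the thalamus and midbrain.

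Reads were counted in CPM, counts scaled to a fixed library total, and levels were compared between genes in TPM, which also divides by transcript length. The libraries held 16993978 to 18713770 counts, so that 1 count was worth about the same in each. Trem2 was read first as a check of the labels: it averaged 6.66 ± 1.66, 3.25 ± 0.77 and 0.66 ± 0.29 CPM (SD, n = 3 each) in knockout core, peri-infarct and contralateral tissue, against 384 ± 324, 114 ± 21.6 and 25.4 ± 4.30 CPM in the wild-type regions. Replicate 3 of wild-type core was unlike all other libraries. It had fewer detected genes, 16225 against 16724 to 17115, and 5.50 summed CPM of 6 excitatory cortical neuron markers against 633 to 1714 elsewhere. It is called the aberrant core library below, and results that rest on it are given with and without it.

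RefSeq promoter windows (build GRCm38.p6, which differs from the GRCm39 named in the submitters' processing notes) were found for 6 of the 10 genes. Ttr, Clic6, Folr1 and Enpp2 had no entry. Those of Kcnj13, Slc4a5, Cldn2 and Kl are shown because these 4 genes had their highest values in the same 4 libraries, as given below, so that a reader can set their upstream sequence side by side. Each line holds the 250 bases before the transcript start, 5′ to 3′ on the strand of the gene. Kcnj13 lies at chr1:87394730-87394979 (minus strand), Slc4a5 at chr6:83237125-83237374, Cldn2 at chrX:139800558-139800807 and Kl at chr5:150952357-150952606 (all 3 on the plus strand). Capitals mark a TATA box motif, TATAAA, on either strand.
Kcnj13: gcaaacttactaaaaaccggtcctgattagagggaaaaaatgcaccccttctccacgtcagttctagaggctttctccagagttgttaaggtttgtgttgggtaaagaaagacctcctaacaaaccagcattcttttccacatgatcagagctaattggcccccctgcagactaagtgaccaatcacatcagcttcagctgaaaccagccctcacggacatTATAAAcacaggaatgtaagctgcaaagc
Slc4a5: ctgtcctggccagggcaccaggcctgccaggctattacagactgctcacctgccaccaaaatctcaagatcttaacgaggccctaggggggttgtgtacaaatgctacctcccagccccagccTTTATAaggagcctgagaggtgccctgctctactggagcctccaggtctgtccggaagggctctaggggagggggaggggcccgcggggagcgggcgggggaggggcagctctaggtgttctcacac
Cldn2: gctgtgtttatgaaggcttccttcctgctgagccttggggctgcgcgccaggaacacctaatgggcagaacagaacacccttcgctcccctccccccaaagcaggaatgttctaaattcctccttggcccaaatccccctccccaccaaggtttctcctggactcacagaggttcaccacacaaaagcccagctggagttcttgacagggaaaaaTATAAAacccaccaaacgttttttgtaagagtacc
Kl: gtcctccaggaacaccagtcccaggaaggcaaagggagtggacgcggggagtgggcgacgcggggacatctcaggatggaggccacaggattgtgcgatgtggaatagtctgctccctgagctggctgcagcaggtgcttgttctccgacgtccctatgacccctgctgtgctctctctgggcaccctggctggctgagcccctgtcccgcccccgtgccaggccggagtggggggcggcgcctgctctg
The motif stood at bases -29 to -24 of Kcnj13 and -35 to -30 of Cldn2, and on the other strand at -127 to -122 of Slc4a5, while the Kl window had no match. Windows of 300 bases, 250 before and 50 after the start, were searched on both strands for TATAAA, for TAATCC, the core that Otx2 and related homeodomain factors recognise, and for GTTGCC, a part of the motif of RFX factors. These letters were present in 13.6%, 7.06% and 12.5% of all 32851 windows. The 6 genes had 9 windows, 4 of them of Otx2. TATAAA was found in 4 of the 9 (1 each of Kcnj13, Slc4a5, Cldn2 and Otx2), GTTGCC in 3 (of Aqp1 and Otx2), and TAATCC in 1 window of Otx2 itself. Among the 4 Otx2 windows, 2 overlap and hold 1 GTTGCC site in common, so these windows are not separate. The motifs do not overlap one another, and a match describes letters in a window only.

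Ttr, which encodes transthyretin, the carrier of thyroid hormone and retinol-binding protein in cerebrospinal fluid, was the most variable of the 10 genes. It stood at 1.43, 2.38 and 17.2 CPM in knockout core, 494, 9.27 and 2004 CPM in knockout peri-infarct and 2.71, 2166.5 and 29.7 CPM in knockout contralateral tissue (replicates 1, 2 and 3). In wild-type mice it stood at 6.33, 3.80 and 23.0 CPM in core, 54.9, 24.2 and 13.8 CPM in peri-infarct and 2.54, 224 and 8.75 CPM in contralateral tissue. Libraries of the same group thus differed by up to 800-fold (knockout contralateral), and the highest of all libraries held 1513 times the lowest. Counting error is small beside this, since the knockout contralateral library of replicate 2 has a 95% Poisson interval of 2145 to 2189 CPM and that of replicate 1 one of 1.98 to 3.61 CPM. Such intervals cover counting error only.

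By TPM, Ttr was the most abundant gene of the knockout contralateral library of replicate 2, at 8669 TPM, and the second most abundant of the knockout peri-infarct library of replicate 3, at 7485 TPM. It ranked 36 in the knockout peri-infarct library of replicate 1 and 142 in the wild-type contralateral library of replicate 2, and as low as 11860 in the knockout core library of replicate 1. On the log2 CPM scale its range over the 18 libraries was 10.5, and only 12 of the 15329 tested genes had a wider one. The median range of all tested genes was 1.66, and the other 9 marker genes ranged between 4.63 and 7.09. Without the aberrant core library, Ttr ranked 3 and the median range of all genes was 0.91.

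**Figure D1:**
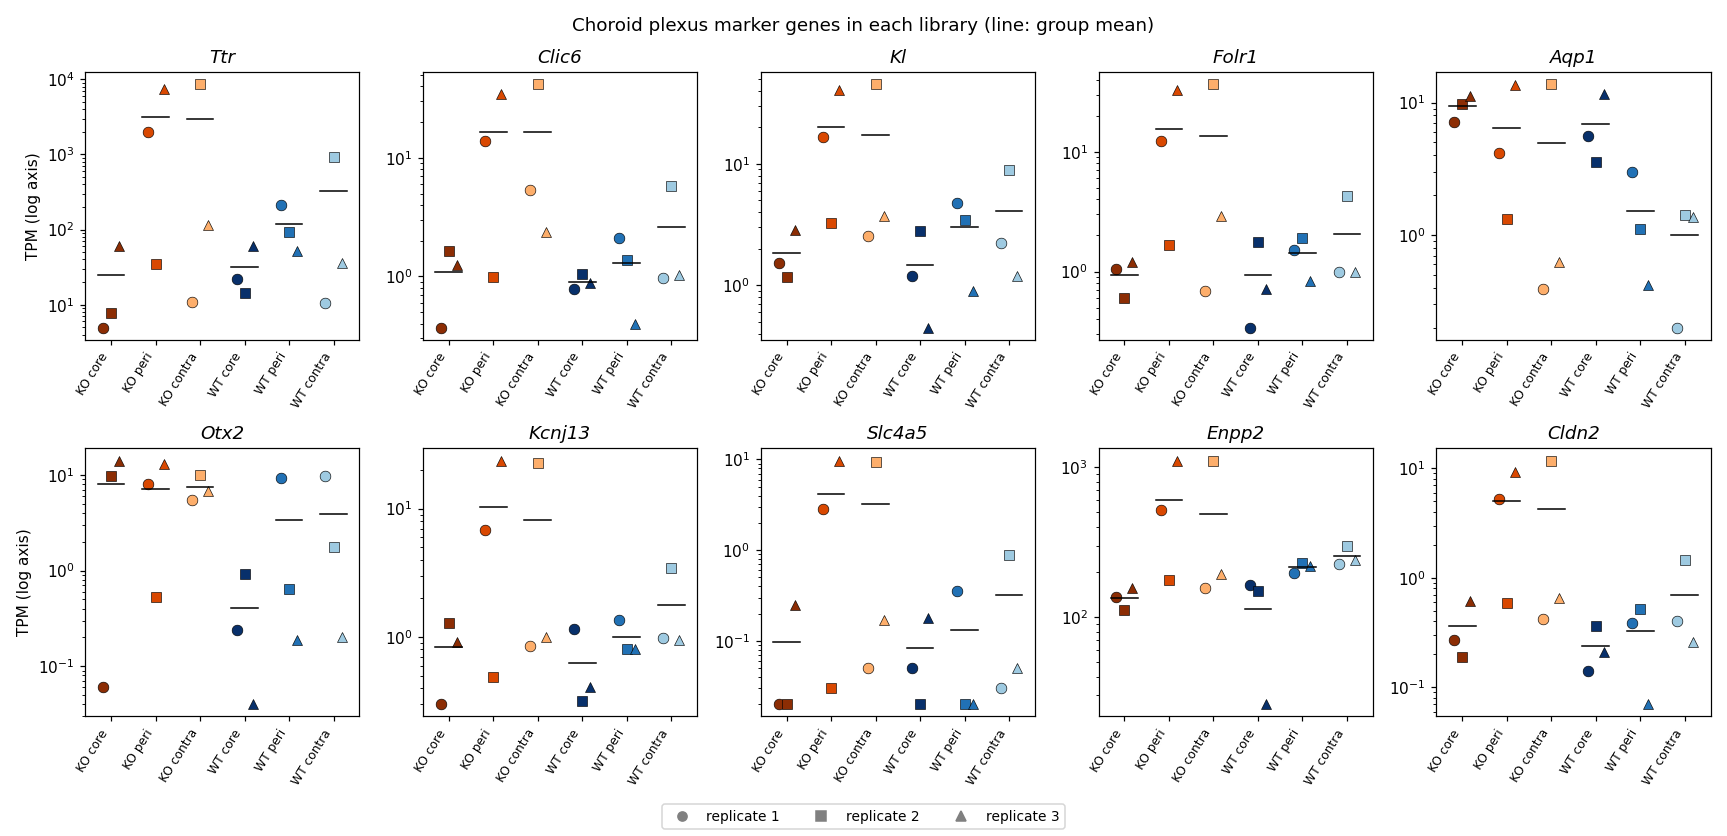
Transcript abundance (TPM, log axis) of each of the 10 marker genes in every library, by genotype and region, with the replicate number as symbol and the group mean as a line. The knockout contralateral library of replicate 2 (8669 TPM of Ttr) and the knockout peri-infarct library of replicate 3 (7485 TPM) lie far above the other libraries of their groups in most panels.

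The other secreted product is Enpp2, or autotaxin, an enzyme that makes lysophosphatidic acid. Enpp2 stood at 221, 182 and 245 CPM in knockout core, 719, 258 and 1663 CPM in knockout peri-infarct and 229, 1555 and 279 CPM in knockout contralateral tissue, and at 250.5, 226 and 54.0 CPM in wild-type core, 285, 326 and 323 CPM in wild-type peri-infarct and 319, 406 and 323 CPM in wild-type contralateral tissue. The 3 knockout libraries with the highest Ttr were again the highest. Unlike Ttr, Enpp2 stood between 182 and 406 CPM in all other libraries but the aberrant core library, whose oligodendrocyte markers summed to 779 CPM against 4887 to 12011 CPM in the rest.

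The channels and transporters followed Ttr in 3 of 4 cases. Clic6, a chloride channel protein, stood at 0.69, 3.07 and 2.27 CPM in knockout core, 22.2, 1.64 and 60.04 CPM in knockout peri-infarct and 8.94, 68.2 and 3.93 CPM in knockout contralateral tissue, and between 0.68 and 9.12 CPM in the 9 wild-type libraries. Kcnj13, the potassium channel Kir7.1, reached 43.3 CPM in the knockout peri-infarct library of replicate 3, 38.2 CPM in the knockout contralateral library of replicate 2 and 10.7 CPM in the knockout peri-infarct library of replicate 1. It stood at 4.85 CPM in the wild-type contralateral library of replicate 2 and between 0.45 and 2.38 CPM in the other 14. Slc4a5, a sodium bicarbonate cotransporter, stood at 23.7, 21.4, 6.31 and 1.93 CPM in the same 4 libraries, in that order. Elsewhere it stood between 0.057 and 0.81 CPM, and 7 libraries held a single count of it. Its fold differences against those libraries are therefore poorly bounded.

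Kl and Folr1 act in hormone and vitamin handling. Kl, or klotho, the co-receptor of the hormone FGF23, stood at 103, 98.2, 37.7 and 19.2 CPM in the knockout contralateral library of replicate 2, the knockout peri-infarct libraries of replicates 3 and 1 and the wild-type contralateral library of replicate 2, and between 1.496 and 11.2 CPM in the other 14. Folr1, the folate receptor alpha, which carries folate across the plexus, stood at 0.52, 0.35 and 0.40 CPM in knockout core, 5.50, 0.88 and 16.4 CPM in knockout peri-infarct and 0.35, 17.03 and 1.22 CPM in knockout contralateral tissue, and between 0.17 and 1.93 CPM in the wild-type libraries. Cldn2, a tight junction protein that lets sodium and water pass between cells, stood at 15.4, 12.8, 6.60 and 1.81 CPM in the same 4 libraries as Kl and between 0.057 and 0.91 CPM in the rest.

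For 8 of the 10 genes, all but Aqp1 and Otx2, these same 4 libraries were the highest: knockout contralateral replicate 2, knockout peri-infarct replicates 3 and 1, and wild-type contralateral replicate 2. None of the 6 core libraries was among them. Within the knockout the replicate numbers of the high libraries did not match between regions, since replicate 2 was high on the contralateral side and low in the peri-infarct zone, and replicates 1 and 3 the reverse. All 10 genes together made up 0.401%, 0.395%, 0.132% and 0.067% of the counts of these 4 libraries and 0.010% to 0.037% of the others. In bulk tissue, more plexus cells and more RNA of these genes per cell cannot be told apart.

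**Figure D2:**
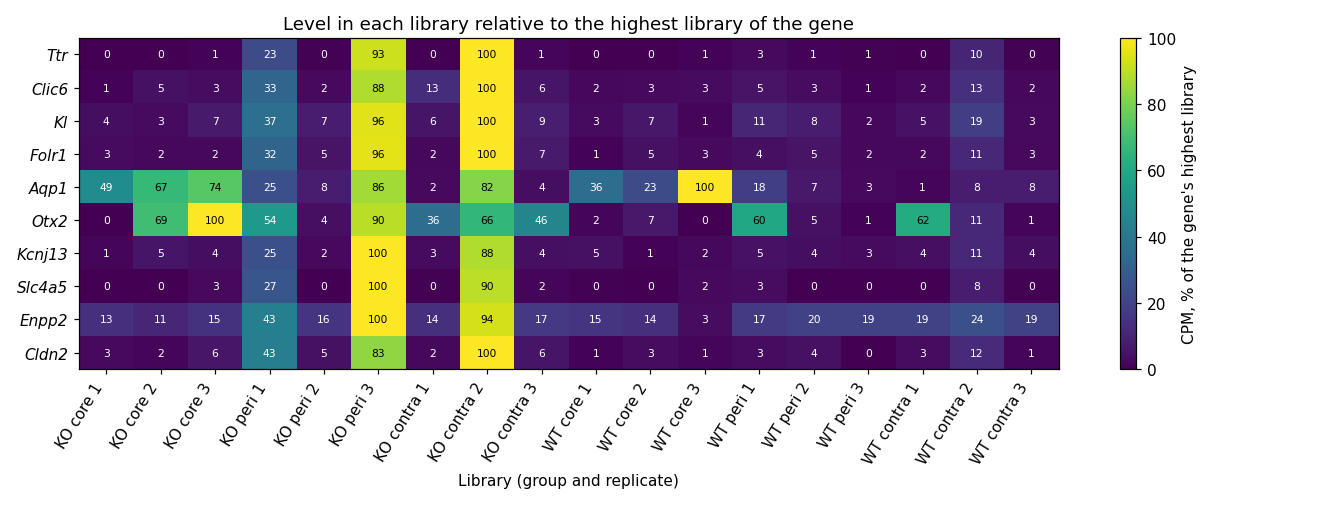
Level (CPM) of each marker gene in each library as a percentage of the highest library of that gene, with knockout groups left of wild-type groups. For 8 genes the bright cells fall in the knockout contralateral library of replicate 2 and the knockout peri-infarct libraries of replicates 1 and 3, while Aqp1 and Otx2 are bright in core libraries too.

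Counts of the other genes were set against those of Ttr in the 4 high libraries. Per 100 counts of Ttr, Kcnj13 had 1.76, 2.16, 2.16 and 2.17 counts in knockout contralateral replicate 2, knockout peri-infarct replicates 3 and 1 and wild-type contralateral replicate 2. Clic6 had 3.15, 3.00, 4.49 and 4.08, Folr1 0.79, 0.82, 1.11 and 0.86, and Slc4a5 0.99, 1.18, 1.28 and 0.86 counts per 100 of Ttr in the same libraries. Aqp1 had 0.74, 0.84, 0.97 and 0.71, Cldn2 0.71, 0.64, 1.34 and 0.81, and Kl 4.74, 4.90, 7.62 and 8.58 counts. The ratios of Enpp2, at 71.8, 83.0, 146 and 182 counts per 100 of Ttr, and of Otx2, at 0.49, 0.71, 1.75 and 0.81 counts, spread most among the 9. All 9 ratios differed less between the 4 libraries than Ttr itself, which ranged between 224 and 2166.5 CPM. In the 14 libraries with less Ttr the ratios spread more widely, up to 15428 counts of Enpp2 and 330 of Clic6 per 100 of Ttr.

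Over the 18 libraries the Pearson correlation with Ttr on the log2 CPM scale was 0.95 for Slc4a5, 0.91 for Folr1, 0.90 for Kcnj13, 0.87 for Cldn2, 0.86 for Kl, 0.85 for Clic6 and 0.76 for Enpp2. It was 0.39 for Otx2 and 0.33 for Aqp1. The corresponding Spearman coefficients were 0.91, 0.80, 0.59, 0.69, 0.71, 0.72 and 0.68, and 0.34 and 0.28 for Otx2 and Aqp1. Without the 2 libraries farthest from the median of Ttr, Pearson's r was 0.89 for Slc4a5, 0.80 for Folr1, 0.76 for Kcnj13, 0.70 for Cldn2, 0.69 for Kl, 0.66 for Clic6 and 0.45 for Enpp2, and 0.19 for Otx2 and 0.04 for Aqp1 (n = 16). These are descriptions over libraries that share groups.

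**Figure D3:**
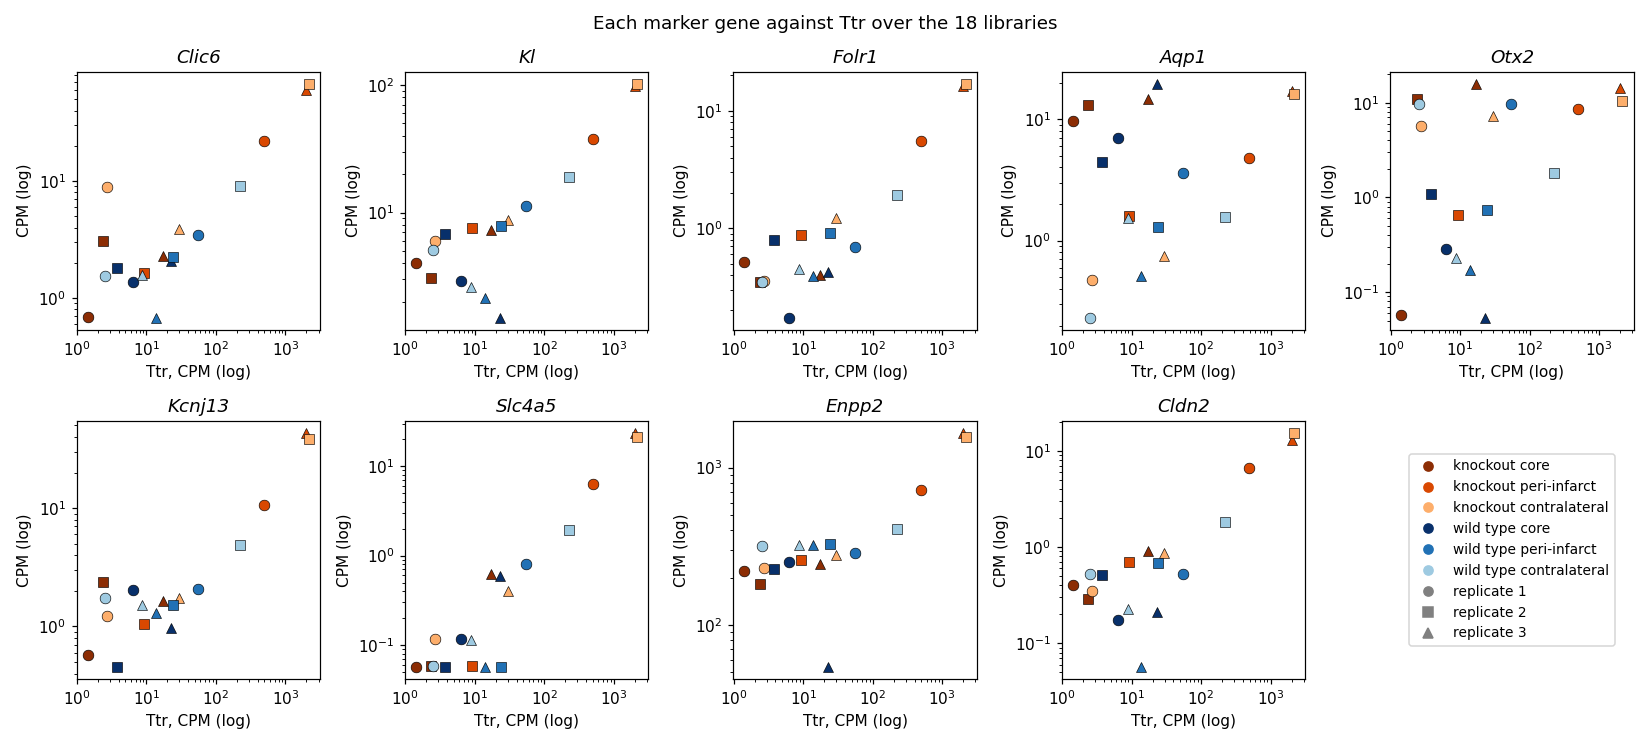
Level of each of the other 9 marker genes (CPM, log axis) against that of Ttr (CPM, log axis) in the 18 libraries, coloured by group and shaped by replicate number. Slc4a5, Folr1 and Kcnj13 climb with Ttr in its upper range, Enpp2 flattens at low Ttr, and Aqp1 and Otx2 scatter.

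Aqp1, the water channel of the plexus epithelium, was high in a wider set of libraries. It stood at 9.56, 13.2 and 14.5 CPM in knockout core, 4.81, 1.58 and 16.9 CPM in knockout peri-infarct and 0.47, 16.0 and 0.75 CPM in knockout contralateral tissue, and at 7.03, 4.48 and 19.6 CPM in wild-type core, 3.60, 1.30 and 0.51 CPM in wild-type peri-infarct and 0.23, 1.58 and 1.53 CPM in wild-type contralateral tissue. All 6 core libraries exceeded all 3 wild-type contralateral and all 3 wild-type peri-infarct libraries, also where Ttr was near its lowest. Within wild-type mice, 28.9% of all tested genes had every core library above every contralateral one. For core above peri-infarct libraries the share was 19.0%. Red blood cells carry Aqp1 too. Red blood cell markers summed to 3.38 to 100.2 CPM in knockout core and 4.48 to 23.9 CPM in wild-type core, against 0.98 to 12.4 CPM in knockout peri-infarct, 2.65 to 16.6 CPM in knockout contralateral, 3.29 to 6.86 CPM in wild-type peri-infarct and 5.11 to 8.15 CPM in wild-type contralateral tissue. Of 6 endothelial markers 3 rose in the core against the contralateral side in each genotype (3 in knockout and 2 in wild-type mice without the aberrant core library). Of all tested genes 19.7% rose there in knockout and 29.1% in wild-type mice, or 29.6% and 23.6% without that library. Their part in the Aqp1 values was not tested.

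Otx2 stood at 0.057, 11.1 and 16.0 CPM in knockout core, 8.63, 0.65 and 14.3 CPM in knockout peri-infarct and 5.71, 10.5 and 7.29 CPM in knockout contralateral tissue, and at 0.29, 1.08 and 0.053 CPM in wild-type core, 9.59, 0.74 and 0.17 CPM in wild-type peri-infarct and 9.83, 1.81 and 0.23 CPM in wild-type contralateral tissue. Several libraries with much Otx2 had little Ttr. The wild-type contralateral library of replicate 1 held 9.83 CPM of Otx2 and 2.54 CPM of Ttr, and the knockout core library of replicate 2 held 11.1 and 2.38 CPM. Against the 5 genes of the thalamus list, Otx2 had Pearson correlations over 18 libraries of 0.82 with Lhx9, 0.67 with Slc17a6, 0.62 with Tcf7l2, 0.38 with Ramp3 and -0.18 with Prkcd (Spearman 0.76, 0.74, 0.48, 0.23 and 0.04). Without the 2 libraries farthest from the median of the listed gene, Pearson's r was 0.76, 0.82, 0.54, 0.01 and -0.13 in the same order. Slc17a6, the vesicular glutamate transporter of subcortical neurons, stood at 148 CPM in the wild-type contralateral library of replicate 1 and at 53.0 CPM in the knockout core library of replicate 2, but at 30.5 CPM in the knockout contralateral library of replicate 2, where Otx2 and Ttr were both high. The part of thalamic tissue in the Otx2 values was not tested.

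Per transcript length, the order of the genes was steep. In the knockout contralateral library of replicate 2, Ttr at 8669 TPM was followed by Enpp2 at 1105, Kl at 45.3, Clic6 at 42.0, Folr1 at 36.7, Kcnj13 at 22.7, Aqp1 at 13.8, Cldn2 at 11.8, Otx2 at 10.1 and Slc4a5 at 9.37 TPM. Over all 18 libraries the median was highest for Enpp2, at 195 TPM, followed by Ttr at 55.8 TPM, and it lay between 0.050 and 3.63 TPM for the other 8.

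Comparisons were made with edgeR's quasi-likelihood test over all 15329 genes, with a Benjamini-Hochberg adjusted p under 0.05 as the threshold for a call, and changes are given on the log2 scale ± SE, from 3 libraries in each group. The libraries of a group may be technical rather than biological replicates, since no label settles it, and the p-values then measure that spread. In knockout mice, 2 of the 10 genes fell in the core against the contralateral side: Clic6 (-3.78 ± 1.27, edgeR adjusted p = 0.046) and Folr1 (-3.89 ± 1.32, edgeR adjusted p = 0.047). Of all tested genes 23.0% were called in this comparison, 3.31% as lower. The 3 knockout core libraries held less Clic6 than each knockout contralateral library, as was so for 28.9% of all tested genes. Those of Folr1 overlapped (0.35 to 0.52 CPM in knockout core, against 0.35 to 17.03 CPM in knockout contralateral tissue). Ttr, at 7.00 ± 8.85 CPM in knockout core against 733 ± 1242 CPM on the knockout contralateral side (SD, n = 3 each), had a log2 fold change of -6.76 ± 2.54 and missed the threshold (edgeR adjusted p = 0.07).

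At an unadjusted p under 0.05, 8 of the 10 genes were lower in knockout core than on the knockout contralateral side, namely all but Aqp1 and Otx2, against 10.1% of all genes. The median log2 fold change of the 10 was -3.29, against -0.01 for all tested genes. Both calls rested on the knockout contralateral library of replicate 2: without it Clic6 came to -1.71 and Folr1 to -0.92 (edgeR adjusted p = 0.33 and 0.57), and Aqp1 became the only one of the 10 called. Both calls were also lost when any 1 of the 3 knockout core libraries was left out (edgeR adjusted p between 0.098 and 0.14). DESeq2, a second count test, called 8 of the 10 lower, against 9.07% of all genes called lower. Without the aberrant core library, which is no part of this comparison but enters the spread that all groups share, edgeR called 6 lower (Ttr, Clic6, Kl, Folr1, Enpp2 and Cldn2), against 27.8% of all genes called lower.

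In wild-type mice the only call among the 10 in core against contralateral tissue was Aqp1, which rose by 3.38 ± 1.29 (edgeR adjusted p = 0.049), with 40.6% of all tested genes called, 29.1% as higher. Aqp1 averaged 10.4 ± 8.10 CPM in wild-type core and 1.11 ± 0.77 CPM on the wild-type contralateral side (SD, n = 3 each). The groups did not overlap, which was so in this direction for 28.9% of all tested genes. Without the aberrant core library, at 19.6 CPM the highest of all for Aqp1, the value was 2.36 and was not called (edgeR adjusted p = 0.17). The call was also lost without any 1 of the 3 wild-type contralateral libraries (edgeR adjusted p between 0.095 and 0.14). DESeq2 called Aqp1 higher as well, with 29.4% of all genes. In knockout mice Aqp1 had a log2 fold change of 1.07 ± 1.13 (edgeR adjusted p = 0.49), where the contralateral library of replicate 2, at 16.0 CPM, lay above all 3 knockout core libraries. Ttr stood at -2.63 ± 2.10 in wild-type core against contralateral tissue (edgeR adjusted p = 0.3), 11.1 ± 10.4 CPM against 78.3 ± 126 CPM. The median of the 10 genes was -1.17, against -0.03 for all genes.

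Core against peri-infarct tissue gave 0 edgeR calls among the 10 in knockout mice, and 0% of all genes were called there. At an unadjusted p under 0.05, 8 of the 10 were lower in knockout core, against 5.62% of all genes, with a median of -3.65 against -0.04 for all genes. Ttr had -6.96 ± 2.56 (edgeR adjusted p = 0.17), at 7.00 ± 8.85 CPM in knockout core and 836 ± 1041 CPM in knockout peri-infarct tissue (SD, n = 3 each). DESeq2 called 7 lower (Ttr, Clic6, Kl, Folr1, Kcnj13, Slc4a5 and Cldn2), against 1.44% of all genes called lower. Without the aberrant core library, edgeR called Ttr, Clic6, Kl, Folr1, Enpp2 and Cldn2 lower, against 15.8% of all genes. In wild-type mice 0 of the 10 were called, with 13.0% of all genes called, 1 of the 10 (Aqp1) higher at an unadjusted p under 0.05, against 25.4% of all genes, and Ttr at -1.30 ± 2.02 (edgeR adjusted p = 0.61). DESeq2 called 0 of the 10 there too, against 23.0% of all genes.

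The peri-infarct zone and the contralateral side were not separated by any of the 10 genes in either genotype. With edgeR, 0 were called in knockout mice (4.48% of all genes called) and 0 in wild-type mice (3.27%). In either genotype 0 of the 10 reached an unadjusted p under 0.05, against 15.1% of all genes in knockout and 12.9% in wild-type mice. DESeq2 called 0, against 7.29% and 5.3% of all genes. Ttr averaged 836 ± 1041 CPM in knockout peri-infarct and 733 ± 1242 CPM in knockout contralateral tissue, a log2 fold change of 0.20 ± 1.97 (edgeR adjusted p = 0.99). In wild-type mice it averaged 31.0 ± 21.4 CPM in peri-infarct and 78.3 ± 126 CPM in contralateral tissue, a log2 fold change of -1.33 ± 2.01 (edgeR adjusted p = 0.93). With SEs of about 2 on the log2 scale, changes of a few doublings in Ttr were not detectable at this spread.

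**Figure D4:**
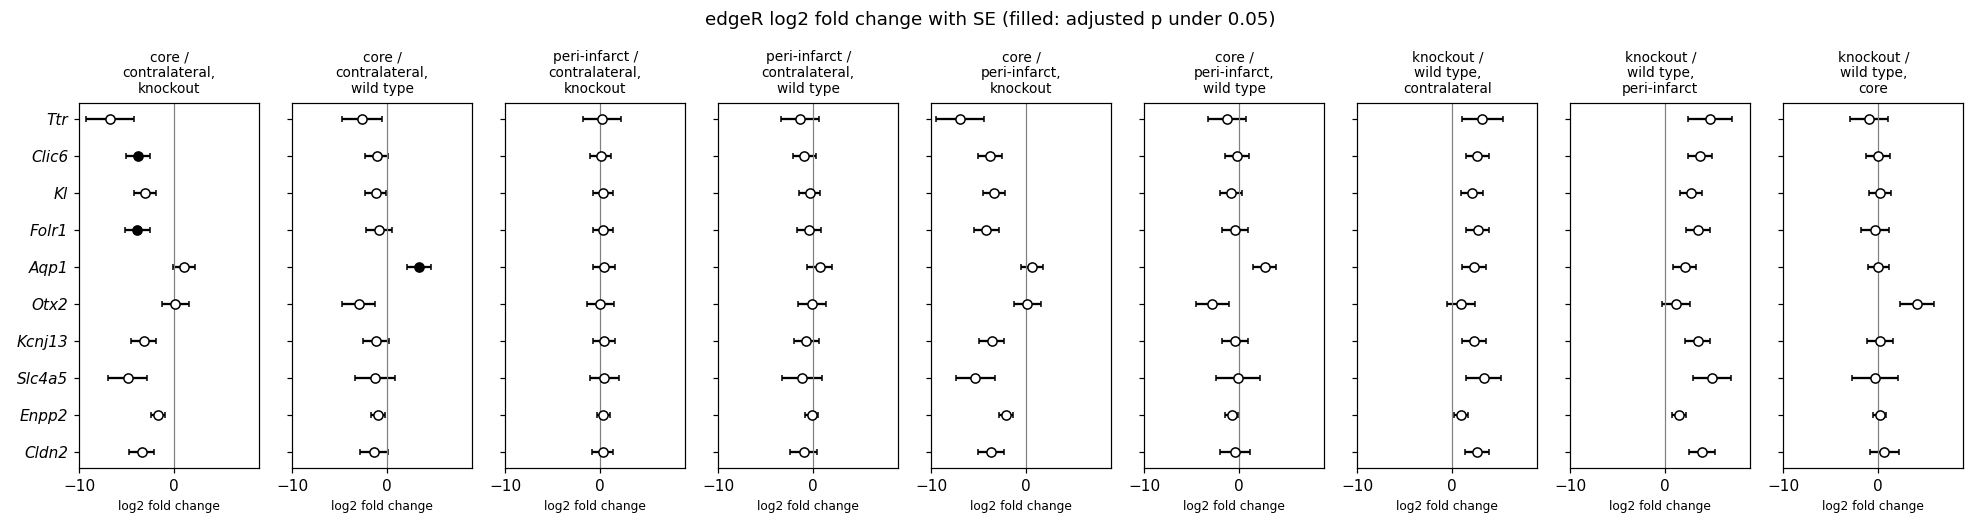
Log2 fold change ± SE of each marker gene in 9 comparisons of 2 groups, from edgeR, with filled points for an adjusted p under 0.05. Only Clic6 and Folr1 in knockout core against contralateral tissue and Aqp1 in wild-type core against contralateral tissue are filled, and 8 genes lie left of 0 in the panels of knockout core against contralateral or peri-infarct tissue.

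Knockout was set against wild type within each region to ask whether loss of Trem2 went with other levels of these genes. All 10 had positive log2 fold changes on the contralateral side and in the peri-infarct zone, with medians of 2.48 and 3.44 against -0.02 and 0 for all genes, and 0 of the 10 were called in either. Of all tested genes 0.00652% were called in each of these 2 comparisons. At an unadjusted p under 0.05, 2 of the 10 were higher on the contralateral side (Clic6 and Folr1), against 1.14% of all genes, and 6 in the peri-infarct zone (Clic6, Kl, Folr1, Kcnj13, Slc4a5 and Cldn2), against 2.13% of all genes. DESeq2 called 0 of the 10 in both, against 0.0848% of all genes on the contralateral side and 0.111% in the peri-infarct zone. Ttr came to 3.18 ± 2.14 and 4.71 ± 2.30 (edgeR adjusted p = 1.0 in both).

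On the contralateral side, the knockout library of replicate 2 held 2166.5 CPM of Ttr, while the other knockout libraries, at 2.71 and 29.7 CPM, lay in the range of the wild-type ones (2.54 to 224 CPM). Without it the median of the 10 genes was -0.51 and Ttr came to -2.32. In the peri-infarct zone the knockout library of replicate 2, at 9.27 CPM of Ttr, lay below all 3 wild-type libraries (13.8 to 54.9 CPM). In the core 0 of the 10 genes were called, against 0.013% of all genes, and Ttr had -0.95 ± 2.03 (edgeR adjusted p = 0.88), at 7.00 ± 8.85 CPM in knockout core and 11.1 ± 10.4 CPM in wild-type core. Otx2 was the only one of the 10 there at an unadjusted p under 0.05, and was higher, against 3.80% of all genes, with DESeq2 calling 0 (0.594% of all genes). Its groups overlapped, since knockout core replicate 1 held 0.057 CPM, a single count, and wild-type core 0.053 to 1.08 CPM. The aberrant core library also held a single count. Without that library edgeR called 0 of the 10 there, against 3.06% of all genes.

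Whether the regional response differed between genotypes was tested as an interaction. For the core response 0 of the 10 genes were called and 0% of all genes, and 0 reached an unadjusted p under 0.05, against 2.39% of all genes. DESeq2 called 0, against 0.00652% of all genes, and Ttr had a difference of -4.13 ± 2.92 (edgeR adjusted p = 0.98). For the peri-infarct response the counts were the same, 0 called, 0% of all genes, 0 unadjusted (0.731% of all genes) and 0 by DESeq2 (0% of all genes), with Ttr at 1.53 ± 2.80 (edgeR adjusted p = 1.0). The 2 calls in knockout core and the call of Aqp1 in wild-type core are thus not shown to differ between the genotypes.

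A list of 12 further genes of the choroid plexus epithelium was read beside the 10. In knockout core against contralateral tissue 0 rose and 2 fell, Sostdc1, a secreted inhibitor of BMP and Wnt signals (-3.43 ± 1.13, edgeR adjusted p = 0.042), and the membrane protein gene Tmem72 (-5.73 ± 1.94, 0.047), with a median of -2.67 over the 12 against -0.01 for all genes. The share of all tested genes that fell there was 3.31%. By edgeR 0 of the 12 were called in the other 10 comparisons, whose shares of all genes called are given above. Among those comparisons up to 10 of the 12 had an unadjusted p under 0.05 (knockout against wild type, peri-infarct). That comparison had a median of 2.98 over the 12, and 3.23% of all genes had an unadjusted edgeR p under 0.05. DESeq2 called 7 lower in knockout core against contralateral and 5 lower in knockout core against peri-infarct tissue, and 1 higher in wild-type core against contralateral tissue. It called 9.07%, 1.44% and 29.4% of all genes in the same directions. Without the aberrant core library edgeR called 7 and 6 lower in the same 2 knockout comparisons, against 27.8% and 15.8% of all genes. Sostdc1 stood at 20.2 CPM in the knockout contralateral library of replicate 2, 14.8 and 5.10 CPM in the knockout peri-infarct libraries of replicates 3 and 1 and 2.28 CPM in the wild-type contralateral library of replicate 2, and between 0.16 and 1.82 CPM in the others. The 12 genes summed to 25.6 to 38.2 CPM in knockout core, 40.1 to 272 CPM in knockout peri-infarct and 27.8 to 264 CPM in knockout contralateral tissue, and to 17.2 to 38.9 CPM in wild-type core, 17.1 to 32.8 CPM in wild-type peri-infarct and 15.1 to 50.3 CPM in wild-type contralateral tissue.

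Of the genes outside the 10 whose mean log2 CPM was not below 0, those with the pattern most like the mean of the 10 over the 18 libraries were Mfrp and F5 (Pearson r = 0.97 each), Abca4 (0.95), Sostdc1 (0.94), Slc2a12 (0.93), Rdh5 (0.91), Epn3 (0.88) and Prlr (0.87). Their Spearman coefficients were lower, at 0.85, 0.89, 0.70, 0.81, 0.76, 0.73, 0.67 and 0.72 in the same order. F5, Abca4, Sostdc1 and Prlr also stand in the list of further plexus genes. F5, coagulation factor V, stood at 58.7, 50.6, 21.4 and 5.32 CPM in knockout peri-infarct replicate 3, knockout contralateral replicate 2, knockout peri-infarct replicate 1 and wild-type contralateral replicate 2, and between 0.71 and 1.85 CPM in the other 14. The likeness is over libraries of 6 groups and has no test.

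Markers of tissue next to the plexus were read in the same libraries. The 10 ependymal and motile cilium genes, which mark the lining of the ventricles, summed to 71.8, 62.0 and 107 CPM in knockout peri-infarct and 39.3, 86.3 and 42.2 CPM in knockout contralateral tissue (replicates 1, 2 and 3), and to 22.2, 9.97 and 21.4 CPM in knockout core. In wild-type mice they summed to 10.7, 51.5 and 3.85 CPM in core, 27.8, 50.5 and 29.6 CPM in peri-infarct and 24.2, 53.8 and 29.6 CPM in contralateral tissue. The library with the most Ttr was also the highest of its group for cilium genes in knockout peri-infarct, knockout contralateral and wild-type contralateral tissue, but not in knockout core, wild-type core or wild-type peri-infarct tissue. In knockout core 2 of the 10, Cfap65 (-2.61 ± 0.79, edgeR adjusted p = 0.029) and Drc7 (-3.12 ± 1.03, 0.042), fell against the contralateral side, or 7 without the aberrant core library. Of all tested genes 3.31% fell in that comparison, or 27.8% without that library. In wild-type mice 0 of the 10 were called there by edgeR, with or without it, or by DESeq2, and 0 had an unadjusted p under 0.05. The share of all genes called there was 40.6% (11.5% as lower), or 40.2% (16.6%) without that library. With DESeq2 it was 50.0% (20.6% as lower), and 51.8% (19.2% as lower) had an unadjusted edgeR p under 0.05.

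Thalamus markers did not follow the same libraries: the 5 genes summed to 268 and 263 CPM in the knockout peri-infarct libraries of replicates 1 and 3, but to 73.6 and 59.4 CPM in the knockout and wild-type contralateral libraries of replicate 2. These sums include Prkcd, the only 1 of the 5 that rose in core against contralateral tissue (2.12 ± 0.42 in knockout and 2.89 ± 0.44 in wild-type mice, edgeR adjusted p = 0.0024 and 0.00025). Ramp3 fell there in wild-type mice (-1.69 ± 0.62, edgeR adjusted p = 0.043). Shares of all genes were 19.7% and 29.1% higher, and 11.5% lower in wild-type mice. The part of Prkcd in the sums was not tested. Markers of the leptomeninges summed to 49.1 to 105 CPM in knockout core and 35.5 to 93.5 CPM in wild-type core, against 26.8 to 57.9 CPM in the other regions, and 2 of 6 (Foxc1 and Aldh1a2) rose in the core against the contralateral side in each genotype, or 1 in wild-type mice without the aberrant core library, against the same shares of all genes as for the endothelial markers. Striatal neuron markers, of tissue that borders the lateral ventricle, summed to 172 to 278 CPM in knockout core, 613 to 781 CPM in knockout peri-infarct and 476 to 1048 CPM in knockout contralateral tissue, and to 32.6 to 151 CPM in wild-type core, 160 to 791 CPM in wild-type peri-infarct and 205 to 487 CPM in wild-type contralateral tissue. In knockout core 1 of the 8, the dopamine receptor gene Drd2, fell against the contralateral side, or 7 without the aberrant core library. The shares of all tested genes that fell there were 3.31% with that library and 27.8% without it. In wild-type core 3 of the 8 fell (Drd2, Tac1 and Rgs9), or 2 without that library. Of all tested genes 11.5% fell in this wild-type comparison, or 16.6% without that library. Hippocampal markers summed to 82.2 to 241 CPM in knockout core, 175 to 338 CPM in knockout peri-infarct and 204 to 241 CPM in knockout contralateral tissue, and to 14.9 to 369 CPM in wild-type core, 78.8 to 335 CPM in wild-type peri-infarct and 72.9 to 210 CPM in wild-type contralateral tissue. The part of the dissected area, of depth of dissection or of any single library in the values of the plexus genes was not tested.

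**Figure D5:**
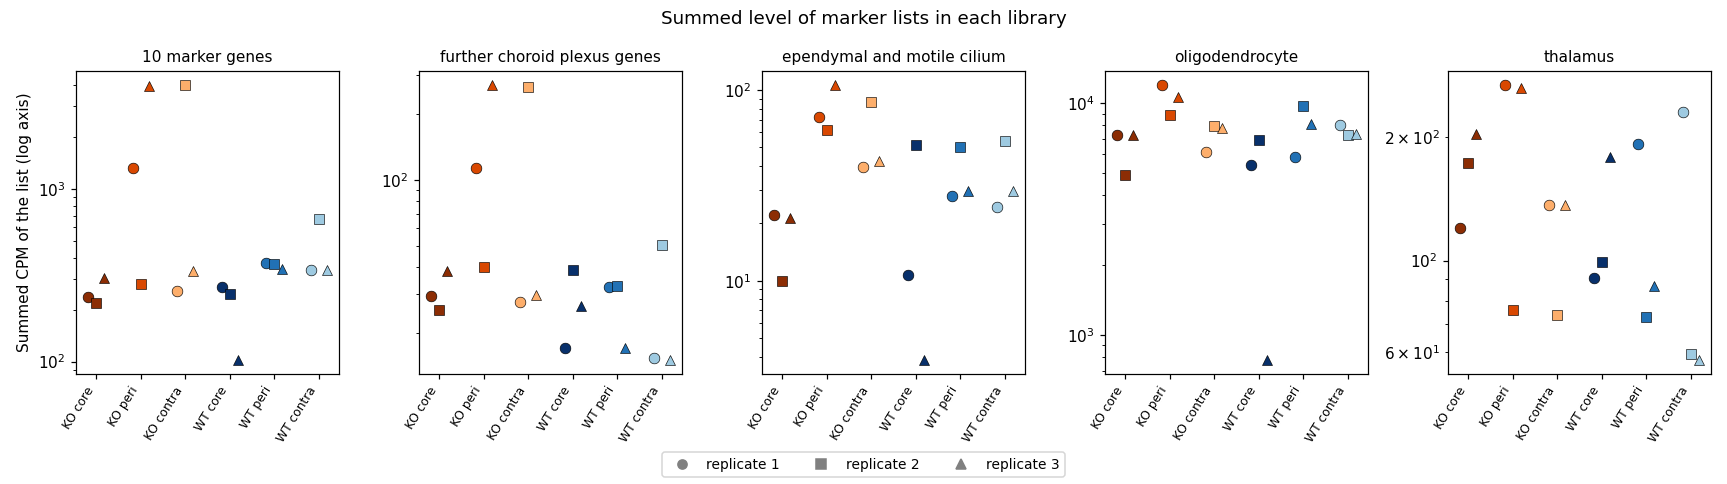
Summed level (CPM, log axis) of 5 marker lists in each library, by genotype and region, with the replicate number as symbol. The 10 marker genes reach 4011 CPM in 1 knockout contralateral library and the 12 further plexus genes 272 CPM in 1 knockout peri-infarct library. On this axis, cilium genes spread less than these lists in knockout peri-infarct and contralateral tissue, but more in the core of each genotype. Thalamus genes are highest in the knockout peri-infarct libraries of replicates 1 and 3 (268 and 263 CPM). They are low in the knockout contralateral library of replicate 2 (73.6 CPM).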

How the data were processed

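Polyadenylated RNA of 18 brain tissue samples was sequenced. The authors deposited expected counts, that is estimated counts which need not be whole, for 18922 genes, of which 3678 (19.4%) had a value that was not whole, and they were rounded before testing although the test had been written for whole counts. The authors also deposited TPM values, scaled by transcript length and library, used here for levels between genes and for alternatives. HISAT2 2.0.4, Bowtie2 and Subread are listed with GRCm39 in the submitters' processing notes, without their roles; which program made the estimates is not given in the sources. No source says that counting used strand, so reads of an overlapping or antisense gene could not be told from those of a marker gene.

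Groups came from the sample labels. Rounded counts went into edgeR 4.0.16 (R version 4.3.3) with TMM scaling, the filterByExpr filter, 1 mean per group (6 in all) and a robust quasi-likelihood fit with 12 residual degrees of freedom. P-values of the 15329 genes tested were adjusted after Benjamini and Hochberg. The SE is the absolute log2 fold change over the square root of F. Log2 CPM used a prior count of 2. The 11 comparisons share groups, so their values are not independent. Alternatives were RLE size factors, DESeq2 1.42.0, no filter, limma 3.58.1 on log2(TPM + 1) and on log2(TPM + 0.1), fits of only the groups compared, the replicate number as a block, and leaving out libraries. The fit was tested on simulated counts. Log2 fold changes are printed for Ttr in every comparison, for other marker genes where called, and for up to 3 genes of each further list. The marker genes and the lists were chosen with earlier results of these data known. All 3 pairs of libraries with the same replicate number correlated above 0.1 in wild-type peri-infarct against contralateral tissue (0.398, 0.436 and 0.386) and in no other of the 9 comparisons of 2 groups, where 1 or 2 pairs did in 6. Some of those pairs join a knockout and a wild-type library, which cannot share an animal. Such pairs came to 0.318, 0.355 and -0.135 on the contralateral side and 0.115, 0.146 and -0.0339 in the peri-infarct zone. The values are therefore at most a hint, as no label ties a number to an animal. Libraries held 16993978 to 18713770 counts.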

Additional observations from a re-analysis of the deposited data

How the results depend on the processing

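The 3 calls in core against contralateral tissue lay close to the threshold. In knockout mice the count of 2 called genes became 8 with DESeq2 and 0 with no filter, with limma on log2(TPM + 1) or log2(TPM + 0.1), and with the replicate block, and ranged from 0 to 6 when 1 library was left out. The calls among all genes were 3524 in the main fit, 4570 with DESeq2 and 3291 with no filter. They were 3515 and 3409 with limma on the 2 TPM scales and 3307 with the replicate block. With only the groups compared the count stayed at 2, but the called genes were Clic6 and Kl. That fit called 8384 genes in all, against 3524 in the main fit. In wild-type mice the count of 1 became 0 with no filter, with limma on either TPM scale, with only the groups compared and with the replicate block, and ranged from 0 to 1 when 1 library was left out. In knockout core against peri-infarct tissue the count of 0 became 7 with DESeq2 (5.84% of all genes called, 1.44% as lower) and 5 with only the groups compared, and ranged from 0 to 6. The replicate block gave 0 calls among the marker genes in each of the 11 comparisons, and the cause of the lost calls was not tested. RLE size factors left all counts as they were, and in the other 8 comparisons every alternative gave 0.

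Ttr changed sign with single libraries. Leaving out 1 library gave log2 values from -3.96 to 1.14 for wild-type core and -1.51 to 5.70 for knockout peri-infarct, each against contralateral tissue, from -2.02 to 2.44 for wild-type peri-infarct against contralateral tissue (0.46 and 0.5 with limma on log2(TPM + 1) and log2(TPM + 0.1)), from -2.32 to 6.95 for knockout against wild type on the contralateral side and -2.79 to 0.39 in the core, and from -7.90 to 1.37 and -2.24 to 7.03 for the differences between genotypes of the core and the peri-infarct response. Depth limits Slc4a5, Cldn2 and Folr1 most, which rest on few reads in most libraries. The cause of the reversals was not tested beyond the library left out.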
